A study of Rattus norvegicus with 50 samples.

Results

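Expression of 36 interferon-induced genes was described in lung tissue of rats that had inhaled nickel subsulfide (Ni3S2), a nickel compound of low solubility. The genes came from a list of 41 genes known to be induced by interferon. Of these, 36 were found in the platform's gene table, out of 13438 genes in all, and Irf8, Oasl2, Gbp5, Ifi47 and Xaf1 were not analysed here. The animals were male Fischer 344 (CDF) rats, received at 7 to 8 weeks of age. Controls were exposed to 0 mg/m3. The exposed rats breathed Ni3S2 at 0.60, 0.15, 0.08 or 0.04 mg/m3, which is 0.44, 0.11, 0.06 or 0.03 mg nickel/m3. Daily exposure lasted 6 hours, 5 days per week, and there were 5 such days in the 1-week groups and 20 in the 4-week groups, and each time had controls of its own. The labels name no other treatment and no altered allele. RNA came from distal airway tissue of the right caudal lobe, and in each of the 10 groups the 5 best RNA samples out of 8 animals were measured, 1 animal per array. A lobe sample holds many cell types, so fewer cells of a type and less RNA per cell cannot be told apart.

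Interferons are cytokines that alert tissue to infection and damage. Type I and type III interferons act through JAK kinases on a complex that holds STAT2 and IRF9 and binds the interferon-stimulated response element (ISRE) of target genes. Interferon gamma acts at the gamma-activated site (GAS). The induced genes encode transcription factors that carry the response on, sensors of foreign nucleic acid, proteins that block viral growth, the ubiquitin-like modifier ISG15, GTPases of cell-autonomous immunity and parts of antigen processing. In the lung, both epithelial cells and macrophages can switch this program on.

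Many promoters of the listed genes carry the letters of these elements. RefSeq promoter windows of 300 bases, from 250 before to 50 after the annotated start on the GRCr8 build, were given for 29 of the 36 genes. Dhx58, Zbp1, Mx2, Ifit1, Ifit2, Isg15 and Usp18 had none. The ISRE core, searched on both strands as GAAA, any 2 bases and GAAA, was in 20 of the 29 windows (69.0%) and in 3.77% of 27457 windows of all genes. A longer form, the core followed by C and 1 more base, was in 15 of the 29 (51.7%) and in 0.863% of all windows. The GAS core, TTC, any 3 bases and GAA, which reads the same on both strands, was in 10 of the 29 (34.5%) and in 8.68% of all windows. Of the 8 members with the largest change at 0.60 mg/m3 for 4 weeks, 4 had a window, and the letters of the ISRE core were in those of Ifit3 and Irf7 but not in those of Mx1 and Oasl. The windows shown first are those of Ifit3 and Irf7, and of Oas1a and Rsad2 as 2 further called antiviral effectors with the core. The capitals mark ISRE cores, of which the Oas1a window holds 2 that overlap. They lie at chr1:241527272-241527301 (plus strand) for Ifit3, chr1:205800073-205800102 (minus) for Irf7, chr12:41330415-41330444 (plus) for Oas1a and chr6:48788248-48788277 (minus) for Rsad2, and the first core starts 44, 69, 41 and 147 bases before the gene's start. Each is written on the strand of its gene, 5′ to 3′.
Ifit3: tttaagtctgTTTCAGTTTCtagtttccac
Irf7: acagtttaggTTTCATTTTCccgagacgca
Oas1a: cccctctcggGAAATGGAAACTGAAAatct
Rsad2: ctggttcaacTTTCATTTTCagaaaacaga

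In 5 of the 29 windows (17.2%), a GAS core and an ISRE core overlapped or lay within 5 bases of each other, against 0.0911% of all windows. They are shown because the 5 genes responded in different ways, as the values below show, and this set was picked after those values were known. The capitals mark the GAS core and the ISRE core, and in Bst2 also a second ISRE core that overlaps the first. The windows lie at chr16:18255079-18255108 (minus) for Bst2, chr1:205541778-205541807 (minus) for Ifitm3, chr10:42874929-42874958 (plus) for Igtp, chr10:33742598-33742627 (minus) for Irgm and chr11:78408043-78408072 (plus) for Parp14.
Bst2: ccctTTCCAGGAAAATGAAACTGAAAggtg
Ifitm3: ttcagGAAAAGGAAAcTTCTGAGAAccgaa
Igtp: tcacTTCCAGGAAccGAAACTGAAAgcagt
Irgm: tcgtTTCAAGGAAtaGAAACTGAAAccgac
Parp14: gggtTTCCAGGAAatGAAAGTGAAAgaagt

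A match describes the letters only. The ISRE core was in 14 of the 20 windows of genes called higher at 0.60 mg/m3 for 4 weeks and in 6 of the 9 windows of the other members.

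Values are log2 intensities, on which a difference of 1 is a doubling, and they ran from 2.22 to 13.8. The lung epithelial markers Sftpc, Scgb1a1 and Ager averaged 13.5, 13.6 and 11.3 over the 50 arrays. Over all genes, the first principal component held 63.5% of the variance. It separated the arrays of 1-week controls and of 0.04 mg/m3 for 1 week from all others outside the 1-week 0.08 mg/m3 group. Within that group, the arrays were spread over both sides, from -64.7 in replicate 1 to 5.46 in replicate 3. Replicate 1 lay inside the range of the 1-week controls, which ran from -75.2 to -43.6. The sources used here give no scan date or processing batch, and whether the 1-week arrays of these groups were handled apart was not tested. Every 1-week comparison with controls rests on those controls.

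At 4 weeks of 0.60 mg/m3, interferon-induced genes were higher as a group. Of the 36 members, 26 (72.2%) were called higher and 0 lower, where 9.47% of all genes were called higher and 7.9% lower (limma, adjusted p under 0.05 over 13438 genes). A called gene is one that passed this test. All 36 changes were above 0. Their median was 0.69, and that of all genes was -0.00. In 25 members (69.4%), every exposed array lay above every control array, which held for 10.5% of all genes, and 13 members rose by 2-fold or more, against 1.21% of all genes. The called members were 3 of 4 transcription factors, 2 of 4 sensors and regulators, 9 of 13 antiviral effectors, 3 of 3 genes of the ISG15 system, 3 of 3 of the PARP and DTX3L group, 2 of 4 GTPases and 4 of 5 genes of antigen processing and other roles.

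**Figure D1:**
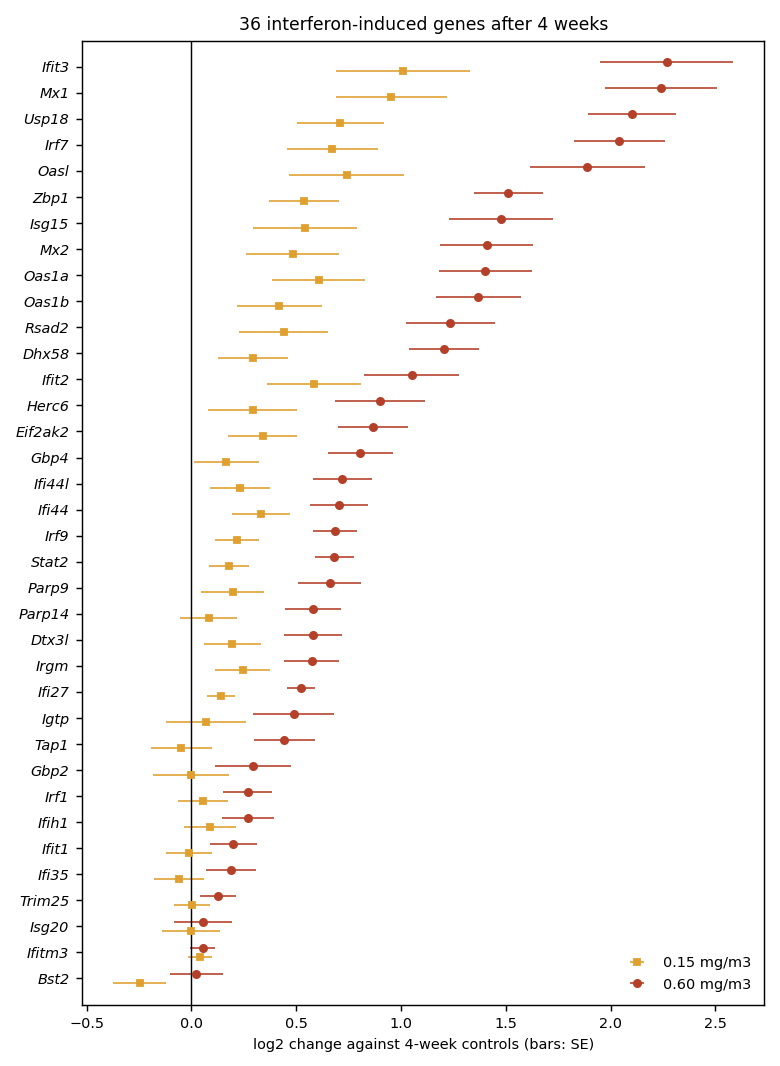
Change from the 4-week controls in log2 intensity, with its standard error, for the 36 members at 0.15 mg/m3 (squares) and 0.60 mg/m3 (circles), ordered by the change at 0.60 mg/m3. The circles run from 0.02 for Bst2 to 2.27 for Ifit3, and all lie above 0.

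Among the transcription factors, Irf7, which amplifies the type I response, was at 7.91, 7.63, 7.71, 7.62 and 7.49 in the 5 control arrays and at 9.70, 9.76, 9.59, 9.19 and 10.33 in the 5 exposed arrays at 0.60 mg/m3, replicates 1 to 5. The groups did not overlap, and the lowest exposed array was above the highest control by more than the whole spread of the controls. Irf7 rose by 2.04 ± 0.22 (SE; 4.12-fold; limma adjusted p = 7.78e-10). Irf9 and Stat2, which act together at the ISRE, each rose by 0.68, with standard errors of 0.11 and 0.09 (1.61-fold each). Irf1, a factor downstream of interferon gamma, was 0.27 ± 0.12 above control and did not pass the test (limma adjusted p = 0.112). Leaving out control replicate 1 brought Irf1 past it, at 0.37.

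The 9 antiviral effectors that were called held 4 of the 8 largest changes. Ifit3, a member of the IFIT family that binds viral RNA complexes, was at 6.60, 6.04, 6.04, 5.80 and 5.85 in controls and at 8.53, 8.50, 8.21, 7.42 and 9.01 at 0.60 mg/m3. The exposed arrays were all above the controls, with replicate 4 lowest and replicate 5 highest. Ifit3 rose by 2.27 ± 0.32 (4.82-fold; limma adjusted p = 5.36e-07). Mx1, a dynamin-like GTPase that blocks viral replication, was at 6.71, 6.95, 6.70, 6.46 and 6.53 in controls and at 8.997, 9.04, 8.73, 8.23 and 9.56 when exposed. Its groups were apart with the same lowest and highest exposed array, and it rose by 2.24 ± 0.27 (4.72-fold; limma adjusted p = 1.28e-08).

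Oasl, a member of the oligoadenylate synthetase family, was at 5.05, 4.60, 4.44, 4.42 and 3.99 in controls and at 6.44, 6.35, 6.63, 5.39 and 7.13 at 0.60 mg/m3. The groups did not overlap, and exposed replicate 4 lay closest to the controls. Oasl rose by 1.89 ± 0.27 (3.70-fold; limma adjusted p = 1.08e-06). Mx2, the paralog of Mx1, was at 7.07, 7.08, 7.00, 6.83 and 6.75 in controls and at 8.39, 8.68, 8.05, 7.51 and 9.14 when exposed, again without overlap. It rose by 1.41 ± 0.22 (2.65-fold; limma adjusted p = 4.52e-06). A dimmer probe set of Mx2, at a mean of 3.02, changed by 0.08 ± 0.08 and was not called (limma adjusted p = 0.55).

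Oas1a and Oas1b, synthetases of the RNase L pathway, rose by 1.40 ± 0.22 and 1.37 ± 0.20. The radical SAM enzyme Rsad2 (viperin) rose by 1.24 ± 0.21, Ifit2 by 1.05 ± 0.23 and the kinase Eif2ak2 (PKR), which stops translation on double-stranded RNA, by 0.87 ± 0.17. Paralogs such as Oas1a and Oas1b or Mx1 and Mx2 may share probe signal, which was not tested. Not every effector was called. Ifit1 was 0.20 ± 0.11 above control, and its mean of 3.67 over the 50 arrays lay near the low end of the scale. The exonuclease Isg20 (0.06 ± 0.14), the tether Bst2 (0.02 ± 0.13) and the entry inhibitor Ifitm3 (0.05 ± 0.06) were close to the control level. Bst2 came out at -0.016 after median centring of the arrays and at -0.065 without exposed replicate 5, and Isg20 at -0.0098 without control replicate 1.

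All 3 genes of the ISG15 system were called. Usp18, the protease that removes ISG15 and damps the type I receptor, was at 7.66, 7.42, 7.23, 7.20 and 7.30 in controls and at 9.50, 9.51, 9.44, 9.03 and 9.83 at 0.60 mg/m3. These groups were far apart and the exposed arrays close together. The rise was 2.10 ± 0.21 (4.29-fold; limma adjusted p = 1.55e-10), the smallest adjusted p among the members. Isg15 itself was at 8.50, 8.22, 8.29, 8.18 and 7.95 in controls and at 9.75, 9.9999, 9.51, 8.93 and 10.34 when exposed. Its groups were apart as well, and it rose by 1.48 ± 0.25 (2.79-fold; limma adjusted p = 1.62e-05). Herc6, the main ISG15 ligase of rodents, rose by 0.90 ± 0.21.

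Of the nucleic acid sensors, Zbp1, which binds Z-form nucleic acid and can start necroptosis, was at 4.43, 4.01, 4.21, 4.30 and 4.13 in controls and at 5.64, 5.85, 5.37, 5.22 and 6.56 at 0.60 mg/m3. The groups did not overlap. Zbp1 rose by 1.51 ± 0.17 (2.85-fold; limma adjusted p = 1.89e-09). Dhx58 (LGP2), a regulator of RIG-I-like sensing, rose by 1.20 ± 0.17. Ifih1 (MDA5) was 0.27 ± 0.12 above control at a mean level of 3.79 and was not called (limma adjusted p = 0.139), though it was without exposed replicate 4, at 0.41. Trim25, the ubiquitin ligase that activates RIG-I, was 0.13 ± 0.08 above control and was not called, although its groups did not overlap.

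**Figure D2:**
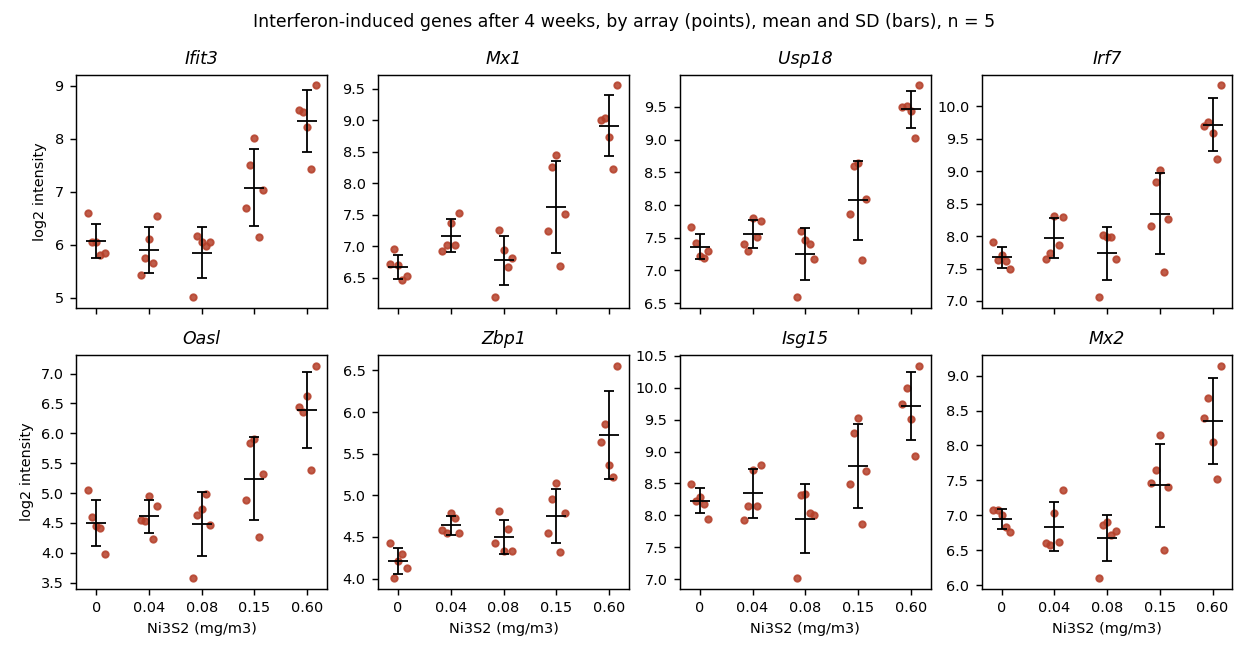
Log2 intensity of the 8 members with the largest change at 0.60 mg/m3, for each array of the 5 concentrations at 4 weeks, with the mean and SD of each group (n = 5). At 0.60 mg/m3 every point lies above every control point, and at 0.15 mg/m3 the 5 arrays are spread from the control level to well above it.

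Changes in the remaining roles were smaller. Parp9, Parp14 and Dtx3l, which act together on STAT-dependent transcription and DNA damage marks, rose by 0.66 ± 0.15, 0.58 ± 0.14 and 0.58 ± 0.14. Among the GTPases, Gbp4 rose by 0.81 ± 0.16 and Irgm by 0.57 ± 0.13. Igtp was 0.49 ± 0.19 above control (limma adjusted p = 0.0742) and was called without exposed replicate 4, at 0.58. Gbp2 was 0.29 ± 0.18 above control (limma adjusted p = 0.297). Ifi44l rose by 0.72 ± 0.14, Ifi44 by 0.70 ± 0.14 and Ifi27, a mitochondrial protein that was bright on every array, by 0.52 ± 0.07.

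Tap1, a subunit of the peptide pump that loads MHC class I, rose by 0.44 ± 0.15 with overlapping groups (limma adjusted p = 0.0281). Its call was lost without control replicate 2 (0.40) or 5 (0.39) and without exposed replicate 2 (0.43) or 5 (0.38). Ifi35 was 0.19 ± 0.12 above control and was not called.

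Genes around the listed ones were counted from fixed lists in the same comparison. No interferon gene was called among 3 measured: Ifng, Ifnb1 and Ifnk changed by -0.03, 0.13 and 0.10 at mean levels of 2.77, 3.21 and 3.26, near the low end of the scale, and none passed an unadjusted p under 0.05 either. Ifna1, Ifna2, Ifna4, Ifna11, Ifne, Ifnl1 and Ifnl3 of the same list were not found in the platform's gene table. Of the interferon receptor subunits, 1 of 5 was called, Il10rb at 0.34 ± 0.08. Of the genes that carry the signal, 5 of 7 were called higher, among them Irf5 at 0.72 ± 0.16, Jak2 at 0.48 and Tyk2 at 0.43. Of further sensors, 6 of 9 were higher, led by Sting1 at 1.07 ± 0.15 and Tlr7 at 0.84. Of 5 inhibitors of the pathway limma called 0, and at an unadjusted p under 0.05 only Ptpn2 was higher (0.24 ± 0.10). Of 20 further interferon-stimulated genes 17 were higher, among them Ddx60 at 1.28 and Epsti1 at 1.15. Of 10 antigen presentation genes induced by interferon gamma 6 were higher, among them Tapbp at 0.61 and the immunoproteasome subunit Psmb8 at 0.54. In none of these lists was a gene called lower.

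The 3 T cell attractants Cxcl9, Cxcl10 and Cxcl11, which interferon induces, were all higher. Cxcl10 was at 4.32, 3.88, 4.09, 3.99 and 4.00 in controls, at 5.20, 6.72, 6.69, 4.36 and 5.20 at 0.15 mg/m3 and at 7.07, 7.07, 6.80, 5.67 and 7.42 at 0.60 mg/m3. The arrays that were high or low for the listed members, replicates 2 and 3 and replicate 4 at 0.15 mg/m3, were so for Cxcl10 too. It rose by 2.75 ± 0.29 at 0.60 mg/m3.

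Markers of other cells moved in the same samples, where 9.47% of all genes were called higher and 7.9% lower. Of 10 genes of monocytes and recruited macrophages, 7 were higher at 0.60 mg/m3 and 0 lower, with Spp1 at 4.56 ± 0.30 and Ly6c at 1.31. Their mean relative level, which is the mean over the genes of each gene's distance from its mean over all arrays, ran from -0.46 to -0.18 in controls and from 0.50 to 0.84 at 0.60 mg/m3. Of 11 T cell genes 7 were higher, with ranges from -0.54 to -0.27 and from -0.11 to 0.64. Of 7 neutrophil genes 4 were higher, with overlapping ranges from -0.36 to 0.36 and from 0.20 to 0.80. Of 4 B cell genes 1 was higher, with ranges from -0.75 to -0.34 and from -0.11 to 0.42. Of 8 genes of alveolar type 2 cells 5 were higher and 1 lower, with group means of 0.02 and 0.23. Of 4 club cell genes 2 were lower, with group means of 0.12 and -0.44, and of 6 endothelial genes 4 were lower, with group means of 0.04 and -0.36. For these 3 lists, too, the arrays of the groups did not overlap. Of 3 measured genes listed for plasmacytoid dendritic cells, a main source of type I interferon, 1 was higher, Il3ra at 0.48. Another, Bst2, is also 1 of the 36 members. Siglech, Ccr9 and Spib of the same list were not found in the platform's gene table. Of 7 NK cell genes 1 was higher and 6 were lower. Their ranges overlapped, from 0.02 to 0.69 in controls and from -0.27 to 0.06 when exposed, and the control mean of 0.33 was the highest of the 10 groups. The part of these cells in the members' change was not tested. T cell genes were also higher at 0.04 mg/m3 for 4 weeks, 9 of 11 with a range from 0.24 to 0.54, where 8.29% of all genes were called higher and limma called 0 of the 36 members (10 with array weights and 11 with only the compared arrays). The share of all genes called in the last 2 settings is not given here.

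**Figure D3:**
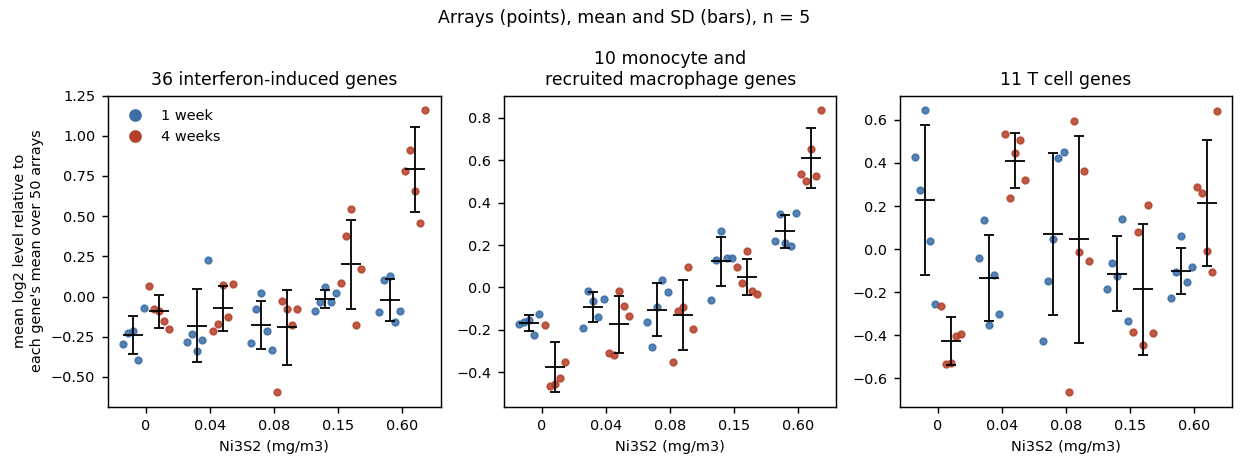
Mean relative log2 level per array for the 36 members, 10 monocyte and recruited macrophage genes and 11 T cell genes, over the 5 concentrations at 1 and 4 weeks. The members and the monocyte and macrophage genes are highest at 0.60 mg/m3 for 4 weeks, and the T cell genes have their highest group mean, 0.41, at 0.04 mg/m3 for 4 weeks.

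At 0.15 mg/m3 for 4 weeks the animals differed from each other. Only Mx1 and Usp18 were called, 2 of 36 members, and 0 were lower, where 1.92% of all genes were called higher and 1.58% lower. Mx1 was at 7.24, 8.26, 8.44, 6.68 and 7.50, a rise of 0.95 ± 0.27 (limma adjusted p = 0.0296). Usp18 was at 7.87, 8.60, 8.64, 7.15 and 8.09, a rise of 0.71 ± 0.21 (limma adjusted p = 0.044). For both, replicates 2 and 3 were far above the controls, and replicate 4 was within their range or below it. At an unadjusted p under 0.05, 16 members were higher and 0 lower, where 6.53% of all genes were higher and 7.46% lower at that threshold. The median change of the members was 0.23, and 0 members had exposed arrays all above the controls, against 4.61% of all genes.

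The spread was shared across members. Replicate 4 was the lowest of the 5 arrays in 29 of 36 members, which held for 13.9% of all genes, and replicate 3 was the highest in 29, against 17.3%. The number of members above every control array was 13, 22, 28, 1 and 20 in replicates 1 to 5, where the share of all genes was 17.1%, 26.4%, 19.3%, 17.4% and 17.8%. Ifit3 was at 6.69, 7.50, 8.02, 6.14 and 7.03, Irf7 at 8.16, 8.84, 9.02, 7.44 and 8.26, and Isg15 at 8.49, 9.29, 9.52, 7.86 and 8.69. In these 3 members too, replicate 4 was in or below the control range. The mean relative level of the monocyte and macrophage genes was 0.09, 0.02, 0.17, -0.02 and -0.03 in the same arrays, and that of the B cell genes was -0.96, -0.52, -1.28, 0.18 and -0.95, with replicate 4 apart. What set replicate 4 apart was not tested.

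The 2 calls at 0.15 mg/m3 depended on single arrays. No member was called without control replicate 3, 4 or 5 or exposed replicate 2 or 3, and 7 members were called without exposed replicate 4. Without control replicate 2 or exposed replicate 1 or 5, 1 member was called. Mx1 was also lost without control replicate 1. The change of Mx1 was 0.80 without exposed replicate 2 and 0.75 without exposed replicate 3, and that of Usp18 was 0.58 and 0.57.

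At 0.60 against 0.15 mg/m3, a comparison that uses no controls, 18 members (50%) were higher and 0 lower at 4 weeks, where 1.91% of all genes were called higher and 0.953% lower. The median difference of the members was 0.49. Usp18 stood 1.39 ± 0.21 higher (limma adjusted p = 2.1e-05) and Irf7 1.37 ± 0.22 higher (limma adjusted p = 5.08e-05), followed by Mx1 at 1.28, Ifit3 at 1.26 and Oasl at 1.15. In 14 members the groups did not overlap, against 4.27% of all genes. The count was 9 without 0.60 mg/m3 replicate 5 and 10 without 0.15 mg/m3 replicate 4. Of the 36 members, 34 had their highest exposed mean at 4 weeks at 0.60 mg/m3, against 27.7% of all genes.

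The arrays at 0.60 mg/m3 also had an order. Replicate 5 was the highest in 30 of 36 members (17.3% of all genes) and replicate 4 the lowest in 25 (12.0%). Replicate 4 was above every control in 27 members (31.4% of all genes), and the other 4 replicates in 28 to 35 (23.9% to 26.0%). The within-group spread of Ifit3, Oasl, Mx1 and Isg15 was above that of over 97% of genes, at percentiles 98.8, 98.2, 98.0 and 97.6. That of Ifitm3 was at percentile 1.82.

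At 0.08 and 0.04 mg/m3 for 4 weeks, limma called 0 members. With array weights it called 10 at 0.04 mg/m3 and 5 at 0.08 mg/m3, and with only the compared arrays 11 and 1. The share of all genes called in these settings is not given here, so these counts have no background beside them. At 0.08 mg/m3, where 8.54% of all genes were called, the median change was -0.10, and at an unadjusted p under 0.05 there were 0 higher and 5 lower members (13.7% and 10.2% of all genes). Replicate 1 of this group was the lowest array in 30 of 36 members, which held for 41.6% of all genes. It was at 5.01 for Ifit3, 6.19 for Mx1, 6.59 for Usp18, 7.05 for Irf7 and 7.02 for Isg15, below every 4-week control. The mean relative level of 5 skeletal muscle genes reached 7.14 in that array. At 0.15 against 0.08 mg/m3, 13 members (36.1%) were higher and 0 lower, where 8.05% of all genes were called higher and 10.5% lower, led by Ifit3 at 1.23 and Ifit2 at 1.10. This count was 7 without 0.08 mg/m3 replicate 1, 8 without its replicate 4, 8 without 0.15 mg/m3 replicate 2 and 6 without 0.15 mg/m3 replicate 3.

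At 0.04 mg/m3, where 12.9% of all genes were called, the median change of the members was 0.06. At an unadjusted p under 0.05 there were 4 higher and 2 lower (16% and 11.1% of all genes). Ifit2 was at 7.39, 7.22, 7.09, 7.22 and 7.60, against 7.70, 8.33, 7.91, 7.73 and 8.06 in controls. All 5 exposed arrays were lower, and the change of -0.64 ± 0.23 missed the threshold (limma adjusted p = 0.0520). Mx1, at 6.92, 7.01, 7.36, 7.02 and 7.53, was 0.50 ± 0.27 above control with overlapping groups (limma adjusted p = 0.22). Eif2ak2, at 6.21, 6.03, 6.24, 6.09 and 6.37 against 6.52, 6.98, 6.64, 6.42 and 6.57, was lower in every exposed array, and its change of -0.44 ± 0.17 was not called (limma adjusted p = 0.072). Groups apart and lower occurred in these 2 of 36 members, against 6.82% of all genes. Groups apart and higher occurred in 5.56% of the members, Zbp1 and Trim25, against 12.3% of all genes. The number of called members became 2 without control replicate 1 and 1 without 0.04 mg/m3 replicate 5.

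At 1 week of 0.60 mg/m3 the members moved in both directions. Of the 36, 12 (33.3%) were higher and 7 (19.4%) lower, where 32.8% of all genes were called higher and 32.3% lower, so the members' share was close to the background for the higher genes and below it for the lower. Their median change was 0.04. The higher members were antiviral effectors (Ifit3, Rsad2, Oas1b, Mx2, Ifitm3), Isg15, Parp9, Dtx3l, the GTPases Igtp, Irgm and Gbp2, and Ifi44. The lower ones were Irf7, Trim25, Ifit2, Herc6, Tap1, Ifi27 and Ifi35.

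Ifit3 was at 4.06, 4.65, 4.35, 4.47 and 4.51 in 1-week controls and at 5.94, 6.72, 6.42, 6.03 and 5.86 at 0.60 mg/m3, a rise of 1.79 ± 0.32 (limma adjusted p = 3.41e-06). Rsad2 was at 6.22, 6.92, 6.23, 6.19 and 7.07 and at 8.00, 8.34, 8.33, 7.92 and 8.39, a rise of 1.67 ± 0.21 (limma adjusted p = 3.42e-09). In both, every exposed array was above every control. Igtp, an immunity-related GTPase that guards against vacuolar pathogens, was at 6.39, 6.61, 6.15, 5.79 and 6.84 and at 7.60, 7.90, 8.12, 8.02 and 8.05. It rose by 1.58 ± 0.19 (limma adjusted p = 1.15e-09). Parp9 was at 7.10, 7.29, 7.03, 6.94 and 7.65 and at 8.19, 8.38, 8.39, 8.26 and 8.41, a rise of 1.12 ± 0.15 (limma adjusted p = 1.07e-08). These groups were also apart, and the exposed arrays of Parp9 lay within a narrow band.

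Of the members that fell at 1 week, Tap1 fell by 0.98 ± 0.15, Ifi35 by 0.94 ± 0.12 and Irf7 by 0.87 ± 0.22. Irf7 was at 9.09, 9.001, 9.59, 9.06 and 9.25 in controls and at 8.47, 8.45, 8.52, 8.06 and 8.14 at 0.60 mg/m3. No exposed array reached the controls. Ifit2 fell by 0.65 ± 0.23, and Ifi27 and Trim25 each by 0.31. The calls of Herc6 (-0.52 ± 0.21) and Mx2 (0.56 ± 0.22) depended on single arrays. Herc6 was lost without control replicate 2 or 5 or exposed replicate 1, 4 or 5, and came to -0.39 without control replicate 5. Mx2 was lost without control replicate 4 or exposed replicate 2 or 3, and came to 0.44 without the last.

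**Figure D4:**
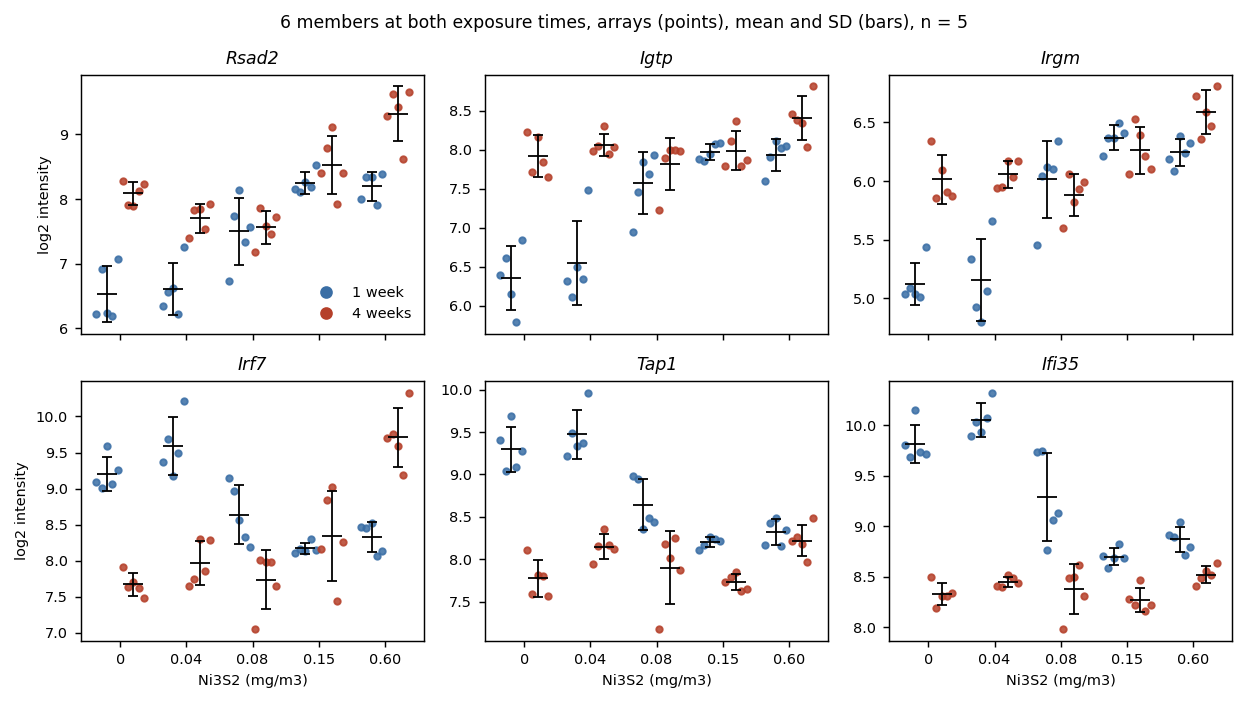
Log2 intensity per array of Rsad2, Igtp, Irgm, Irf7, Tap1 and Ifi35 over the 5 concentrations at 1 week and 4 weeks, with group means. The 1-week control and 0.04 mg/m3 arrays are low for Rsad2, Igtp and Irgm and high for Irf7, Tap1 and Ifi35, while the 1-week 0.60 mg/m3 arrays lie nearer the 4-week controls.

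The controls of the 2 times differed in many of the same genes. Between 4-week and 1-week controls, 13 members were higher and 11 lower, where 35.2% of all genes were called higher and 38.2% lower. This comparison shares the 1-week controls with the 1-week exposures, so the values are given side by side. Group means (SD, n = 5) of Igtp were 6.36 ± 0.41 in 1-week controls, 7.94 ± 0.20 at 0.60 mg/m3 for 1 week and 7.92 ± 0.27 in 4-week controls. Those of Irf7 were 9.20 ± 0.24, 8.33 ± 0.21 and 7.67 ± 0.16. For both genes the 1-week exposed mean lay on the side of the 4-week controls. Ifitm3 did not follow this order, at 11.51 ± 0.04, 11.88 ± 0.03 and 11.53 ± 0.07. Nor did Ifit2, at 7.63 ± 0.15, 6.98 ± 0.34 and 7.95 ± 0.26, and Herc6, at 6.10 ± 0.39, 5.58 ± 0.18 and 6.46 ± 0.30. Of the 19 members called at 0.60 mg/m3 for 1 week, 17 had the same sign between the controls, a count that the shared controls can raise. The share of all called genes with the same sign is not given here, so the count is no result about the members. The calls of Irf1 (-0.26) and Ifih1 (0.27) between the controls were near the threshold.

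With the 4-week controls put in place of the 1-week controls, several 1-week changes turned or shrank. At 0.60 mg/m3 for 1 week, Irf7 then was 0.66, Tap1 0.54 and Ifi35 0.54 above control. Igtp came to 0.02, Rsad2 to 0.11 and Ifit3 to 0.13. Parp9 came to -0.14, Gbp2 to -0.34 and Ifi44 to -0.20. Ifitm3, at 0.34, Ifit2, at -0.96, and Herc6, at -0.88, kept their direction and their call. The exposure time and the control group change together in this setting and cannot be told apart.

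At 1 week the lower concentrations gave the following counts. At 0.15 mg/m3, 13 members were higher and 7 lower (33.8% and 33.7% of all genes), and between 0.60 and 0.15 mg/m3 limma called 0 members (0.0149% of all genes; 0 also at an unadjusted p under 0.05). At 0.08 mg/m3, 5 were higher, Rsad2, Ifitm3, Parp9, Igtp and Irgm, and 9 lower (25.1% and 23.5% of all genes). Without 0.08 mg/m3 replicate 5 there were 8 calls instead of 14.

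At 0.04 mg/m3 for 1 week, 4 members were higher and 3 lower, where 15.1% of all genes were called higher and 11.8% lower. Oasl was at 5.21, 5.30, 5.63, 5.01 and 5.34 in controls and at 5.73, 6.10, 5.35, 6.19 and 6.86 when exposed, a rise of 0.75 ± 0.27 (limma adjusted p = 0.039). Oas1a was at 7.02, 7.29, 7.43, 7.08 and 7.72 and at 7.53, 7.99, 7.67, 8.08 and 8.99, a rise of 0.75 ± 0.22 (limma adjusted p = 0.013). For both genes the groups overlapped and replicate 5 was the highest exposed array. Isg15, at 7.74, 7.91, 7.86, 7.59 and 8.23 and at 7.99, 8.40, 7.86, 8.41 and 9.14, was 0.49 ± 0.25 higher and was not called (limma adjusted p = 0.13). Stat2 (0.38) and Irf9 (0.36) were also higher, and Ifi44l (-0.42), Parp14 (-0.36) and Trim25 (-0.35) lower.

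Replicate 5 was the highest array of this group in 27 of 36 members, which held for 20.6% of all genes. Without it, Oasl came to 0.54, Oas1a to 0.51 and Irf9 to 0.26, none of them called, and the counts were 1 higher and 3 lower. There were also 4 calls, 3 higher and 1 lower, without control replicate 5 or 0.04 mg/m3 replicate 4. The calls of Oasl and Parp14 were each lost in more than 5 of the settings that left out 1 array.

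**Figure D5:**
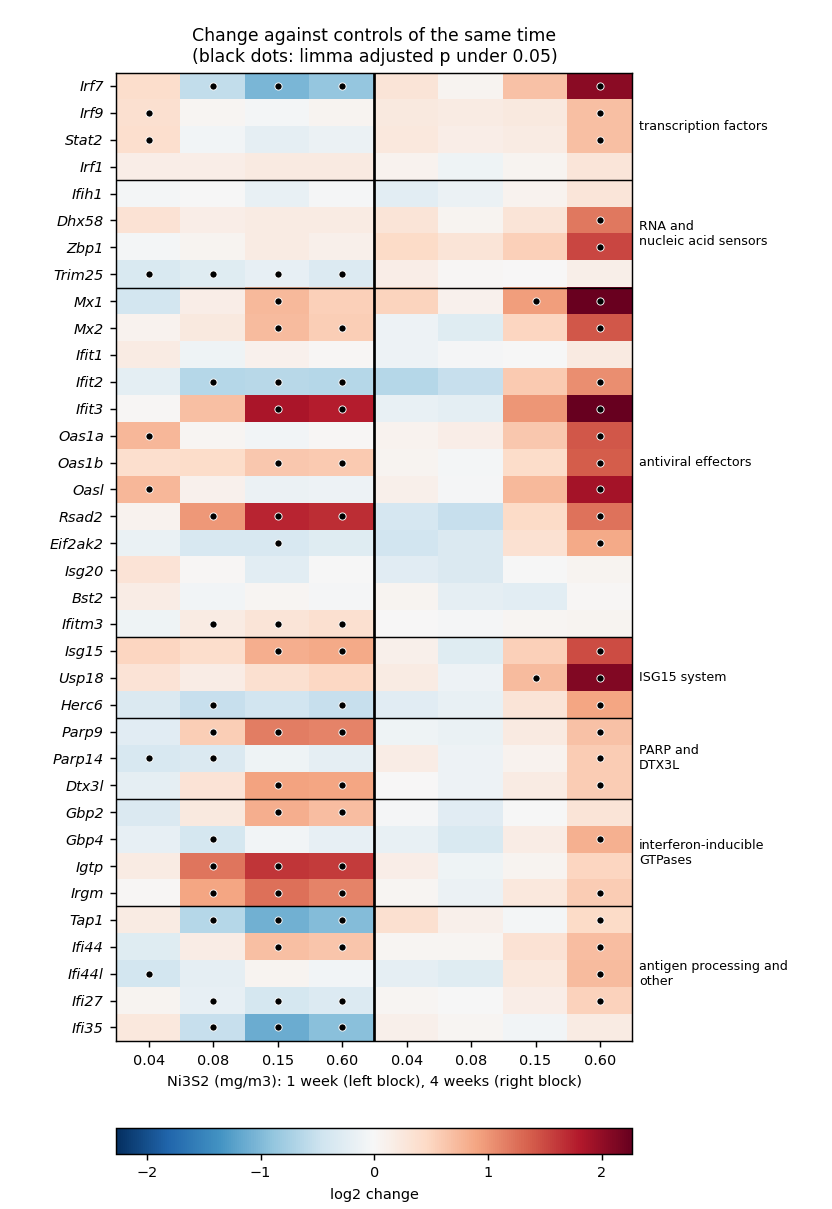
Log2 change from the controls of the same time for the 36 members, grouped by role, at the 4 concentrations for 1 week (left) and 4 weeks (right), with a dot where limma called the change. At 4 weeks the dots stand at 0.15 mg/m3 for 2 members and at 0.60 mg/m3 for 26, and at 1 week both directions occur at every concentration.

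The change at 4 weeks was tested against the change at 1 week, each from its own controls. At 0.60 mg/m3, 21 members (58.3%) had a higher change at 4 weeks and 3 (8.33%) a lower one, where the test called 27.7% and 29% of all genes. The median difference was 0.78. Irf7 differed most, by 2.91 ± 0.31 (limma adjusted p = 2.53e-10), since it fell at 1 week and rose at 4 weeks, each against its own controls. Its control means were 9.20 at 1 week and 7.67 at 4 weeks, and its means at 0.60 mg/m3 were 8.33 and 9.71. Each such difference also rests on the 1-week controls, which stood apart over all genes, but their part varied by gene. The control means of Usp18 were 7.36 at both times, and its means at 0.60 mg/m3 were 7.82 and 9.46. Those of Mx1 were 6.38 and 6.67 in controls, and 6.91 and 8.91 at 0.60 mg/m3. Oasl differed by 2.01 ± 0.39 (limma adjusted p = 2.34e-05) and Mx1 by 1.70 ± 0.38 (limma adjusted p = 0.000152). The 3 genes with a lower change at 4 weeks were Igtp (-1.09), Irgm (-0.55) and Ifitm3 (-0.31). The exposed mean of Igtp was 7.94 at 1 week and 8.41 at 4 weeks, and that of Irgm 6.24 and 6.59. Their control means differed more, at 6.36 and 7.92 and at 5.12 and 6.02. These 3 genes are among the 5 with paired GAS and ISRE cores shown above, a set picked after these values were known. Parp14, also of that set, had a higher change at 4 weeks (0.79), and Bst2 was not called. A link between the pair and the change was not tested. Without 0.60 mg/m3 replicate 5 at 4 weeks, Mx2 (0.65) and Oas1b (0.64) were no longer called.

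In levels, without controls, 30 of the 36 members had a higher mean at 0.60 mg/m3 at 4 weeks than at 1 week, against 33.2% of all genes. Ifit3 was at 6.20 ± 0.36 (SD, n = 5) and 8.34 ± 0.59, Irf7 at 8.33 ± 0.21 and 9.71 ± 0.41, and Igtp at 7.94 ± 0.20 and 8.41 ± 0.28.

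At the lower concentrations this difference between times was called in fewer members. At 0.15 mg/m3, 9 were higher and 7 lower (27.4% and 29.4% of all genes), and at 0.08 mg/m3, 3 and 5 (21.4% and 23%). At 0.04 mg/m3, where 12% of all genes were called, only Trim25 (0.50) was higher and Isg20 (-0.56) lower.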

How the data were processed

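The deposited table holds log2 intensities of 31042 probe sets on 50 arrays, made by the authors with RMA in Partek, per the submitters' processing notes; the sources used here give no versions and do not say which arrays were normalised together. RMA makes the distributions of arrays alike, so a change is relative to the rest of the array; array medians ran from 5.25 to 5.61. Of the probe sets, 19063 carried 1 gene symbol, 572 several and 11407 none. Each gene was read from its brightest probe set (mean of 50 arrays), without further normalisation. Groups were taken from the labels, 5 animals each. One model with 10 group means was fitted over all genes with limma 3.58.1 (R 4.3.3) and eBayes, with two-sided tests, Benjamini-Hochberg adjustment over 13438 genes in each of the comparisons, and calls at an adjusted p under 0.05. The script was tested on simulated data. The members and the gene lists were chosen with earlier results of these data known. Genes with values for every array were the 8 largest changes at 0.60 mg/m3 for 4 weeks, the 4 largest at 1 week, the 3 largest differences between times and the 3 largest at 0.04 mg/m3; other members were named by role or call. Alternatives covered scaling, variance model, array weights, dim genes, probe sets, blocks, fold, the arrays fitted, the controls used and each array left out.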

Additional observations from a re-analysis of the deposited data

Results flagged for a closer look

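In the test of the change at 0.60 mg/m3 at 4 weeks against that at 1 week, 24 members differed between the times (limma). The difference was positive for the factors Irf7 (2.91), Stat2 (0.82) and Irf9 (0.63) and for the sensors and regulators Zbp1 (1.41), Dhx58 (1.01) and Trim25 (0.44). Among antiviral effectors it was positive for Oasl (2.01), Mx1 (1.70), Ifit2 (1.70), Oas1a (1.38), Eif2ak2 (1.13), Mx2 (0.85) and Oas1b (0.78). Usp18 (1.64), Herc6 (1.42), Parp14 (0.79), Gbp4 (0.99), Tap1 (1.42), Ifi44l (0.78), Ifi27 (0.84) and Ifi35 (1.13) were positive too. The difference was negative for Igtp (-1.09), Irgm (-0.55) and Ifitm3 (-0.31). Each value also rests on the 1-week controls, which stood apart over all genes. Their part varied by gene, and for Usp18 the control means were 7.36 at both times.

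The 5 arrays of a group were checked for 1 array far from the other 4 in 58 sets of values, each a gene or the mean of the members in 1 of the 10 groups, so the sets share arrays. There were 2 such cases, where chance gives about 1 in 20. The mean relative level of the 36 members was 0.23 in replicate 5 at 0.04 mg/m3 for 1 week, with a group median of -0.27. It was -0.60 in replicate 1 at 0.08 mg/m3 for 4 weeks, with a group median of -0.08.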

How the results depend on the processing

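The 26 members called higher at 0.60 mg/m3 for 4 weeks numbered 21 (with at least 1.5-fold) to 31 (array weights) over all settings, with 0 lower. A tally covered 2811 recomputed changes of named members. Of these, 2624 kept their direction and side of the threshold, 159 lost the call, 13 gained it and 15 turned sign. All 13 gains were at 0.60 mg/m3 for 4 weeks. The tally leaves out calls gained in other comparisons, which are among the counts below, so it cannot show how stable those comparisons were. Precision is limited by having 5 arrays in a group, and the causes of the shifts below were not tested.

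At 0.04 mg/m3 for 4 weeks (0 called), 2 members were called after median centring, 2 after quantile normalisation, 1 with a variance trend, 10 with array weights, 1 without the dimmest 25% of genes, 1 with probe sets averaged, 11 with only the compared arrays and 3 with the 25 arrays of that time. At 0.08 mg/m3 for 4 weeks (0 called), 5 were called with array weights, 1 with the compared arrays, 1 with the 25 arrays and 1 without replicate 1 of that concentration at both times, a setting chosen after seeing the data. At 0.15 mg/m3 for 4 weeks (2 called), quantile normalisation gave 1 and array weights 11. For 0.60 against 0.15 mg/m3 at 4 weeks (18), array weights gave 28. At 1 week, 0.04 mg/m3 (7) gave 2 with 1.5-fold and 30 with the 4-week controls, and 0.08 mg/m3 (14) gave 5 and 24, and 6 with the compared arrays. Between the 4-week and 1-week controls themselves, 73.5% of all genes were called. For the difference between times, 0.04 mg/m3 (2) gave 0 with 1.5-fold and 4 with the compared arrays, and 0.08 mg/m3 (8) gave 5 and 4, and 13 with array weights. The share of all genes called in each setting is not given here, so these counts show only how far the member counts moved.

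With the replicate number as a block, 1 member was called at 0.04 mg/m3 for 4 weeks, 1 at 0.08 mg/m3 for 4 weeks and 1 for the change at 4 weeks against that at 1 week of 0.04 mg/m3. Same-numbered arrays did not deviate together (median r -0.01 over 225 pairs), so the numbers were not taken as pairs.

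With each array left out in turn, the counts ran from 4 to 8 at 0.04 mg/m3 and from 8 to 15 at 0.08 mg/m3 for 1 week, and from 0 to 2 at 0.04 mg/m3 and from 0 to 7 at 0.15 mg/m3 for 4 weeks. They ran from 1 to 3 for the difference of the times at 0.04 mg/m3, from 9 to 19 for 0.60 against 0.15 mg/m3 and from 6 to 15 for 0.15 against 0.08 mg/m3.

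Signs turned when 4-week controls replaced those of 1 week for Trim25 at 0.04 mg/m3 (0.091) and, at 0.60 mg/m3 for 1 week, for Irf7 (0.66), Trim25 (0.13), Mx2 (-0.11), Parp9 (-0.14), Dtx3l (-0.077), Gbp2 (-0.34), Tap1 (0.54), Ifi44 (-0.20), Ifi27 (0.11) and Ifi35 (0.54). At 0.60 mg/m3 for 4 weeks, Bst2 turned with median centring (-0.016) and ran from -0.065 to 0.081 with 1 array left out, and Isg20 ran from -0.0098 to 0.10.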

Other observations

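At 1 week of 0.60 mg/m3, genes of the same pathway that are not on the list of 36 moved in different directions. Of all genes, 32.8% were called higher there and 32.3% lower. Rig1, the RNA sensor RIG-I, was 1.22 ± 0.18 above the 1-week controls and 0.57 ± 0.18 above control at 4 weeks (both called by limma). Irf5, a factor downstream of Toll-like receptors, was lower at 1 week, by -1.05 ± 0.16, and higher at 4 weeks, by 0.72 ± 0.16. Sting1, the adaptor of cytosolic DNA sensing, went from -0.50 ± 0.15 to 1.07 ± 0.15, and the helicase Ddx60 from -0.70 ± 0.23 to 1.28 ± 0.23, all 4 called. The 1-week changes rest on the 1-week controls, which stood apart over all genes. Mean levels of Rig1 were 7.09 at 0.60 mg/m3 for 1 week and 7.30 in 4-week controls. Those of Irf5 were 5.95 and 5.25, and those of Sting1 7.97 and 7.09. For Rig1, Irf5 and Sting1, the direction against the 4-week controls was thus the opposite.

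At 0.15 mg/m3 for 4 weeks, 2 of 3 interferon-induced chemokines were called, Cxcl10 at 1.58 ± 0.29 and Cxcl11 at 1.49 ± 0.31, where 1.92% of all genes were called higher. Of 20 further interferon-stimulated genes 2 were called, Lgals3bp at 0.60 ± 0.11 and Epsti1 at 0.54 ± 0.14, and of 9 sensors and adaptors 1, Tlr7 at 0.52 ± 0.15.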
